A study of Mus musculus with 8 samples.

Results

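The heat shock and chaperone genes of mouse whole blood were followed through 19 Affymetrix probe sets for 10 genes, out of 45101 probe sets on the array. The probe sets were taken by their IDs: 3 for Hspa1b, 1 for Hspa1a, 2 each for Hsph1, Dnajb1, Hspa8, Hspa5 and Hspb1, 3 for Hsp90aa1, and 1 each for Hspd1 and Hspe1. The gene names came with that list, since the deposited tables pair no probe set with a gene. Blood was drawn from the vena cava of mice given cobalt chloride (CoCl2, 4 arrays) and of control mice (4 arrays). Cobalt ions keep hypoxia-inducible factors from being degraded although oxygen is normal, and the treatment is therefore known as chemical hypoxia. Per the labels, the CoCl2 mice received 200 ng of it per 100 ml each day for 15 days at room conditions, and the controls were also kept at room conditions, although their titles call them chamber controls. The labels name no strain, sex or age and do not tell whether arrays stand for separate mice, so the spread behind each p-value is that between arrays and may be technical.

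Heat shock proteins are molecular chaperones: they hold unfolded proteins, refold them or pass them on for degradation. The inducible HSP70 genes Hspa1a and Hspa1b are switched on by heat shock factor 1 (HSF1) when unfolded proteins build up in the cytosol, together with their helpers Hsph1 and Dnajb1, while Hspa8 and much of the HSP90 pool are present in unstressed cells. Hspa5 works in the endoplasmic reticulum (ER) and answers to unfolded protein there, and Hspd1 with Hspe1 folds proteins in mitochondria.

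In both genes with a call, Dnajb1 and Hspa8, 1 chaperone probe set was lower and the other higher with CoCl2. The higher ones were much dimmer, with means over all arrays of 4.30 (Dnajb1) and 3.41 (Hspa8), against 7.19 and 10.98 for the lower ones. The lowest mean of any tested probe set was 2.90. Of the 14 chaperone probe sets that were bright enough to test, 4 passed a limma adjusted p of 0.05, 2 higher and 2 lower with CoCl2. Of all 22519 tested probe sets, 45.2% passed (28.6% higher and 16.5% lower). Over all arrays, the share of chaperones called was thus below the background of this comparison, but it rests on few probe sets. Without control replicate 2, 6 of the 14 passed, against 39.6% of all tested probe sets, so the share was no longer lower. Leaving out any other single array gave 1 to 3 of the 14. The split of calls depended on the scaling. It was 0 higher and 3 lower after median centring, and 1 higher and 4 lower after quantile normalization. When centred on added bacterial control RNAs, it was 11 higher and 0 lower. Of all 22519 tested probe sets, 9795, 9173 and 21020 passed under these scalings in turn. A single array recurred among the chaperones. Control replicate 2 was the highest of the 4 controls in 13 of the 14, against 21.2% of all tested probe sets. Hspa1b stood 2.71 above the next control there, the widest such gap of all 22519 tested probe sets. That array was singled out after its values were seen, and differences are given with and without it. Leaving out the highest control always raises a difference, so the values and p-values without it are descriptions.

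All values are log2 expression from GCRMA, read back from the digits of a deposited table without decimal points. The median over all probe sets that are not array controls was 2.79 to 2.80 on the CoCl2 arrays and 2.84 to 2.89 on the control arrays. Precision is limited by having 4 arrays a group, and the median SE over tested probe sets was 0.21. In bulk blood, fewer cells of a type and less RNA per cell cannot be told apart. Bacterial control RNAs added at hybridisation (bioB and bioC) averaged 11.34 ± 0.13 with CoCl2 and 13.16 ± 0.22 in controls (SD, n = 4 each), and as the labels give no batch, any batch cannot be told apart from the groups. Centring the arrays on these controls adds 1.82 to every difference, and centring them on the median of the tested probe sets takes 0.14 from it. Blood cell markers and other chaperone genes were not analysed here, because no table used here names their probe sets.

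Promoter sequences are shown for 5 of the genes, because the HSF1 and ER branches are told apart by the elements before their start sites. They are the 250 bases before the RefSeq gene start on GRCm38.p6, except for Hsph1. The Hsph1 window overlaps its RefSeq gene (chr5:149616843-149636498), and the element marked there lies inside the gene. Capitals mark a heat shock element (GAANNTTC or TTCNNGAA) or, in Hspa5, an ER stress element (CCAAT and CCACG with 9 unspecified bases between). Both strands were searched, and neighbouring matches may overlap.
Hspa1b, chr17:34959239-34959488, minus strand: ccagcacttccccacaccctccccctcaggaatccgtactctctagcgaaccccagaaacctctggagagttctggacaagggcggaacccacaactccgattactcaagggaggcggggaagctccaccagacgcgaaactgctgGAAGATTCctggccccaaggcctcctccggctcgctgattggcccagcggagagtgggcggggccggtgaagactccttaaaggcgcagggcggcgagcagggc
Hsph1, chr5:149636337-149636586, minus strand: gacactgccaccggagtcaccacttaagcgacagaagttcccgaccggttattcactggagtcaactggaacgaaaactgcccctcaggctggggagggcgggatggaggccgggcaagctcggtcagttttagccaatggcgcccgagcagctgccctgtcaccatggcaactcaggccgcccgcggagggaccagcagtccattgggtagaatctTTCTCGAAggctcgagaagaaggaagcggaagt
Hspe1, chr1:55087898-55088147, plus strand: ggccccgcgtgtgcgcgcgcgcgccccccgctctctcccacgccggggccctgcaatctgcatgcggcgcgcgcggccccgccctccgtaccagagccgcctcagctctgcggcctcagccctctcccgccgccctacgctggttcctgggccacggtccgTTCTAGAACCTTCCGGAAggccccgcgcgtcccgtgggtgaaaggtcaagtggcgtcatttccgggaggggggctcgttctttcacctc
Hspb1, chr5:135887669-135887918, plus strand: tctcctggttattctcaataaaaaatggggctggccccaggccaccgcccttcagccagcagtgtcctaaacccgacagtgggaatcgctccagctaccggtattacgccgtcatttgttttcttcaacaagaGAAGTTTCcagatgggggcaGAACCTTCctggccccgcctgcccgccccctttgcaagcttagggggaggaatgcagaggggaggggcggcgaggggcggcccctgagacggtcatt
Hspa5, chr2:34771840-34772089, plus strand: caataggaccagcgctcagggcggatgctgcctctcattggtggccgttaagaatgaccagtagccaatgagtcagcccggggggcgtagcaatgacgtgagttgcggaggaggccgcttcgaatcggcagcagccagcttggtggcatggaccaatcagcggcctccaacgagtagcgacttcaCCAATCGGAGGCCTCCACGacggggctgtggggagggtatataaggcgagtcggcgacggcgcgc

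Sequences were found for 8 of the 10 genes. For Hsph1, Dnajb1 and Hspd1 there were 2 windows each, and only the window farthest upstream was searched. A heat shock element lay in 5 of these 8 windows, those of Hspa1a, Hspa1b, Hsph1, Hspe1 and Hspb1, and in 12.8% of all 32851 windows. The Hsph1 match lay in the part of its window that overlaps the gene. Hspe1 held 3 overlapping matches, where 0.14% of windows held 3 or more, and Hspb1 held 2, where 1.46% held 2 or more. The Hspa1a and Hspa1b windows differed at 3 of 250 bases. The ER stress element was found in the Hspa5 window and in 0.113% of all windows. Neither kind was found in the Dnajb1 window, nor in that of Hspd1, which starts head to head with Hspe1 on chromosome 1. The RefSeq genes Hspd1 and Hspe1 overlap at their starts. The Hspd1 window lies inside Hspe1, and the Hspe1 window with its 3 matches lies inside Hspd1. The lack of a match for Hspd1 therefore holds for its searched window only. A match is a description of the letters and not a measured binding site.

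Hspa1b encodes an inducible cytosolic HSP70, and its probe set 1452318_a_at held the widest spread among these genes. Its log2 values were 3.16, 3.28, 3.99 and 3.63 in the CoCl2 group and 5.38, 8.08, 3.12 and 3.75 in the control group. Control replicate 2 was highest and control replicate 1 next, while control replicate 4 lay within the CoCl2 range and control replicate 3 just below it. The group means were 3.52 ± 0.38 with CoCl2 and 5.08 ± 2.22 in controls (SD, n = 4 each). The log2 difference of -1.57 (SE 0.92, limma adjusted p = 0.19) did not pass, and without control replicate 2 it was -0.56 (SE 0.50, limma adjusted p = 0.384). One CoCl2 cell of this probe set had more than 1 possible reading, 3.99 as used, or 4.04 or 4.40.

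The other inducible HSP70 probe sets were too dim to test, as their means over all arrays lay below 2.90. Hspa1b 1427126_at stood at 2.65 to 2.76 with CoCl2 and at 2.73, 3.26, 2.77 and 2.70 in controls, so control replicate 2 was again the highest array. Hspa1b 1427127_x_at stood at 2.72 to 2.88 with CoCl2 and at 3.16, 3.12, 2.79 and 2.74 in controls, where replicates 1 and 2 were both raised above the rest. The probe set for Hspa1a, 1452388_at, kept within 2.54 to 2.56 with CoCl2 and 2.56 to 2.59 in controls, with no array apart. Hspa1a and Hspa1b are near-identical genes, and how their transcripts divide between these probe sets is not known here.

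Hsph1 encodes HSP110, which releases ADP from HSP70 so that it can let go of its client. Its probe set 1425993_a_at had log2 values of 8.93, 8.99, 9.04 and 8.36 with CoCl2 and 10.21, 11.60, 9.41 and 8.99 in controls. Control replicates 2 and 1 were the highest arrays, and the lowest control lay within the CoCl2 range. The log2 difference was -1.22 (SE 0.50, limma adjusted p = 0.0725), and -0.71 without control replicate 2 (limma adjusted p = 0.1). It passed in 7 of 18 alternatives, among them median centring (-1.36, limma adjusted p = 0.0494) and quantile normalization (-1.46, limma adjusted p = 0.0389), and turned to 0.60 when centred on bioB and bioC.

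The second Hsph1 probe set, 1423566_a_at, had a difference of the opposite sign and was much dimmer, with a mean over all arrays of 4.21 against 9.44. It stood at 4.43, 4.57, 5.03 and 4.39 with CoCl2 and at 3.62, 5.80, 2.99 and 2.82 in controls. Control replicate 2 was the only control above the CoCl2 arrays, and the other controls all lay below them. The log2 difference was 0.80 (SE 0.58, limma adjusted p = 0.282) over all arrays. Without control replicate 2 it was 1.46 (SE 0.25, limma adjusted p = 0.00321) and the groups did not overlap.

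Dnajb1 encodes an HSP40 protein that hands unfolded clients to HSP70 and stimulates its ATPase. Probe set 1416755_at stood at 6.07, 6.67, 6.41 and 6.40 with CoCl2 and at 8.15, 8.71, 7.01 and 8.07 in controls. Every CoCl2 array lay below every control. With a difference of -1.60 (SE 0.33, limma adjusted p = 0.00461) it was 3.02-fold lower with CoCl2, and the difference was -1.35 without control replicate 2 (limma adjusted p = 0.00966) but 0.22 when centred on bioB and bioC. Of the 4 calls among the chaperones, this one held in 17 of its 18 alternatives.

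Dnajb1 probe set 1416756_at was higher with CoCl2, at 4.97, 3.97, 5.14 and 4.78, than in controls, at 3.65, 4.41, 3.42 and 4.03. The groups overlapped, because CoCl2 replicate 2 lay below control replicates 2 and 4. The means differed by 0.84 (SE 0.30, limma adjusted p = 0.0457), 1.79-fold, and by 1.01 without control replicate 2 (limma adjusted p = 0.0297). It no longer passed in 11 of 18 alternatives, including median centring (0.70, limma adjusted p = 0.0743) and leaving out any one of CoCl2 replicates 1, 3 and 4 and control replicates 1, 3 and 4 (limma adjusted p from 0.0598 to 0.119). The part of the transcript that each Dnajb1 probe set reads is not known here, so whether the opposite signs belong to different transcripts was not tested.

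**Figure D1:**
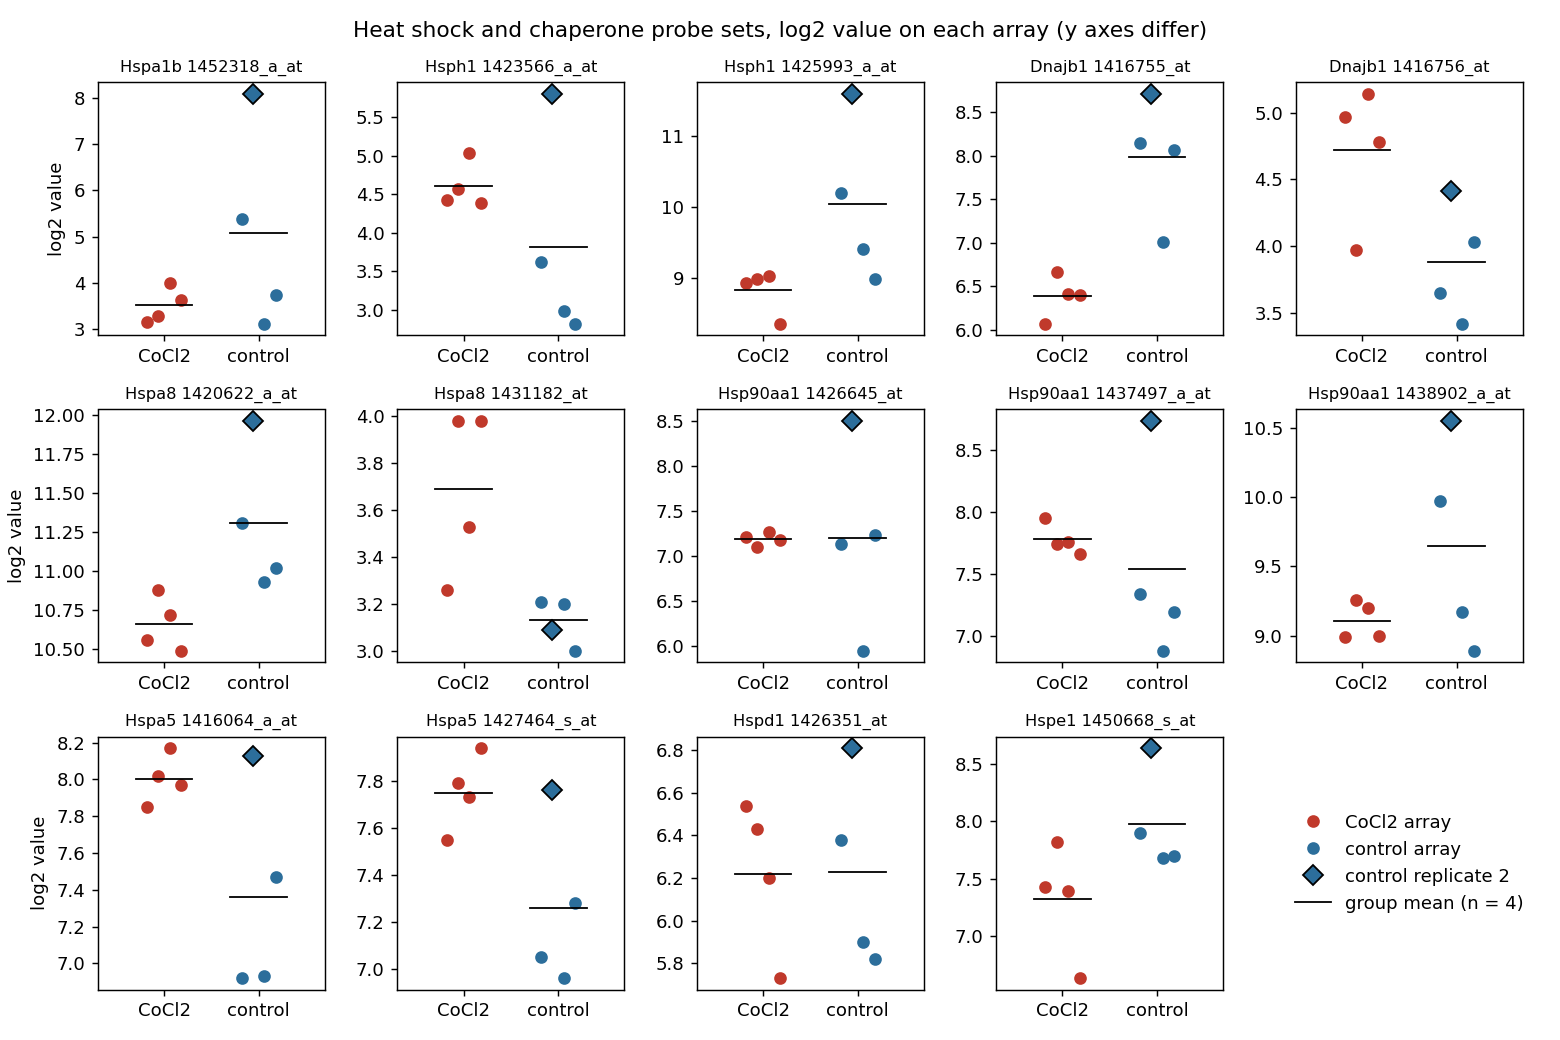
Log2 value on each array (y axis, range set per panel) for the 14 tested probe sets, CoCl2 arrays in red on the left and control arrays in blue on the right of each panel, with black lines for group means (n = 4). Control replicate 2, drawn as a diamond, is the highest control in 13 of 14 panels, the exception being Hspa8 1431182_at.

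Hspa8 encodes the constitutive HSC70, which also strips clathrin from vesicles. Probe set 1420622_a_at stood at 10.56, 10.88, 10.72 and 10.49 with CoCl2 and at 11.31, 11.96, 10.93 and 11.02 in controls. All CoCl2 arrays were below all controls, by a narrow margin at control replicate 3. With a difference of -0.64 (SE 0.23, limma adjusted p = 0.0478) it was 1.56-fold lower with CoCl2, though 1.18 higher on the log2 scale when centred on bioB and bioC. The call was lost without control replicate 2 (-0.42, limma adjusted p = 0.0769), without control replicate 1 (-0.64, limma adjusted p = 0.0918) and without any one of the CoCl2 arrays (limma adjusted p from 0.0593 to 0.101). The value 10.49 had been stored as a spreadsheet day number, and with that cell set to missing the difference was -0.59 (limma adjusted p = 0.0979).

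Hspa8 probe set 1431182_at was again opposite, at 3.26, 3.98, 3.53 and 3.98 with CoCl2 and 3.21, 3.09, 3.20 and 3.00 in controls. The groups did not overlap, and control replicate 2 was not the highest control. The mean of this probe set over all arrays, 3.41, was the lowest among the tested chaperone probe sets. It was 1.47-fold higher with CoCl2, a difference of 0.56 (SE 0.19, limma adjusted p = 0.0364), and 0.42 after median centring (limma adjusted p = 0.11). With 1 array left out it passed only without CoCl2 replicate 1 (0.70, limma adjusted p = 0.0138), and the other 7 settings gave limma adjusted p from 0.0532 to 0.0917.

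Hsp90aa1 encodes the inducible cytosolic HSP90, which keeps kinases and steroid receptors ready for activation. Probe set 1426645_at kept within 7.10 to 7.26 on the CoCl2 arrays, whereas the controls were at 7.13, 8.50, 5.94 and 7.23. Control replicate 2 was the highest and control replicate 3 the lowest of all 8 arrays, and the SD was 0.07 with CoCl2 and 1.05 in controls, 15.9 times larger. The means differed by -0.01 (SE 0.44, limma adjusted p = 0.985), with a 95% confidence interval of -1.01 to 0.99, and by 0.42 without control replicate 2 (limma adjusted p = 0.291).

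Probe set 1437497_a_at of the same gene stood at 7.95, 7.74, 7.76 and 7.66 with CoCl2 and at 7.34, 8.73, 6.88 and 7.19 in controls. Only control replicate 2 exceeded the CoCl2 arrays. The difference of 0.24 (SE 0.36, limma adjusted p = 0.596) became 0.64 without that array (SE 0.16, limma adjusted p = 0.018). The third probe set, 1438902_a_at, was at 8.99 to 9.26 with CoCl2 and at 9.97, 10.55, 9.17 and 8.89 in controls, a log2 difference of -0.54 (limma adjusted p = 0.211), and of -0.23 without control replicate 2 (limma adjusted p = 0.487). Controls 1 and 2 were its highest arrays.

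Hspa5 encodes BiP, the HSP70 of the ER, and both of its probe sets had higher means with CoCl2 without passing. Probe set 1416064_a_at stood at 7.85, 8.02, 8.17 and 7.97 with CoCl2 and at 6.92, 8.13, 6.93 and 7.47 in controls. Control replicate 2 lay among the CoCl2 arrays, and the other controls were all below them. The log2 difference was 0.64 (SE 0.26, limma adjusted p = 0.0746), and 0.90 without control replicate 2 (SE 0.19, limma adjusted p = 0.00751).

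Hspa5 1427464_s_at repeated this order, with 7.55, 7.79, 7.73 and 7.94 with CoCl2 against 7.05, 7.76, 6.96 and 7.28 in controls. Here the means differed by 0.49 (SE 0.19, limma adjusted p = 0.0671), or by 0.66 without control replicate 2 (limma adjusted p = 0.0147). Quantile normalization lowered these Hspa5 differences to 0.37 and 0.20 (limma adjusted p = 0.248 and 0.41), and median centring to 0.51 and 0.35. In the authors' deposited table, the log2 differences were 0.50 and 0.45 with q-values of 0.77% and 1.2%.

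The mitochondrial chaperonin genes share a promoter region but gave different values. Hspd1 1426351_at, the HSP60 barrel, stood at 6.54, 6.43, 6.20 and 5.73 with CoCl2 and at 6.38, 6.81, 5.90 and 5.82 in controls. The groups overlapped throughout, with a log2 difference of 0.00 (95% confidence interval -0.60 to 0.59, limma adjusted p = 0.992), and of 0.19 without control replicate 2 (limma adjusted p = 0.547). Hspe1 1450668_s_at, the HSP10 lid, stood at 7.43, 7.82, 7.39 and 6.63 with CoCl2 and at 7.90, 8.64, 7.68 and 7.70 in controls. Of the CoCl2 arrays only replicate 2 reached the control range, and the log2 difference was -0.66 (SE 0.30, limma adjusted p = 0.0953). It was -0.44 without control replicate 2 (limma adjusted p = 0.219), -0.93 after quantile normalization (limma adjusted p = 0.0329) and 1.16 when centred on bioB and bioC.

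Hspb1, the small heat shock protein HSP27 (HSP25 in mice), was too dim to test on both probe sets. Probe set 1422943_a_at lay at 2.47 to 2.50 with CoCl2 and at 2.51, 2.34, 2.76 and 2.46 in controls, and 1425964_x_at at 2.57 to 2.58 with CoCl2 and at 2.53 to 2.73 in controls. Control replicate 3, not replicate 2, was the highest array on both. Dim members lay well apart from tested ones in level, the lowest tested mean being 3.41 and the highest untested mean 2.86.

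**Figure D2:**
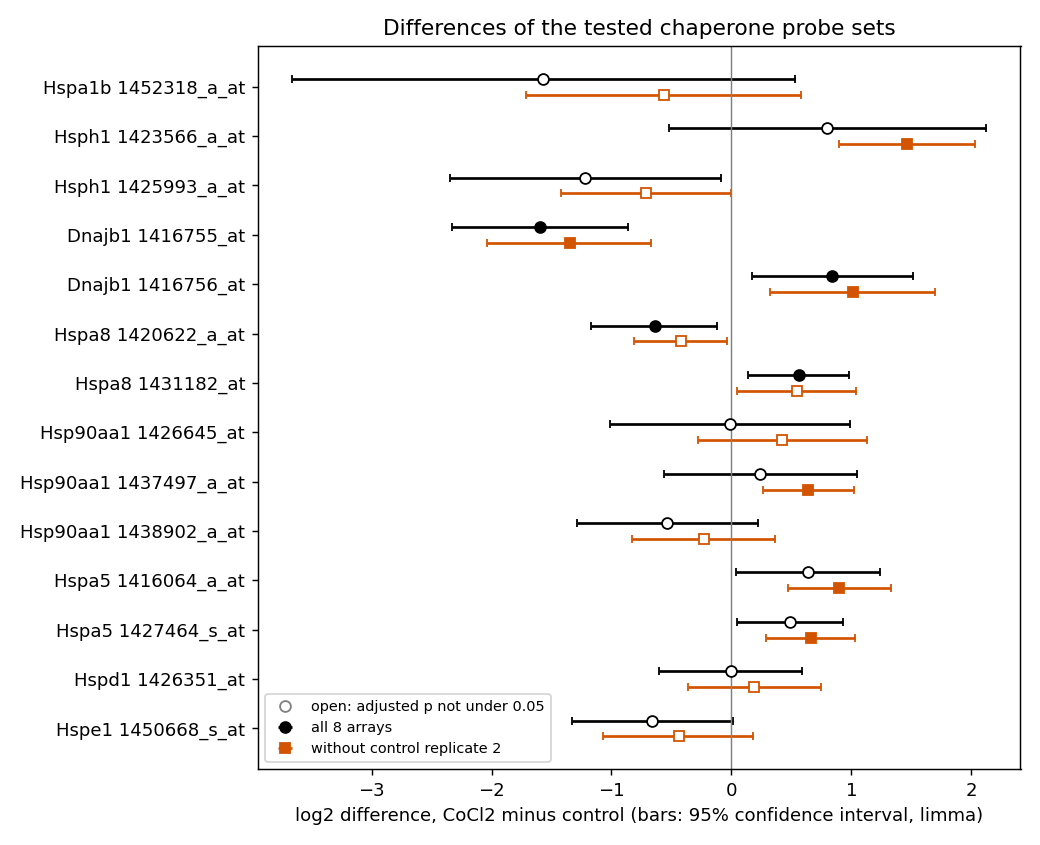
Log2 difference, CoCl2 minus control, with 95% confidence intervals from limma for the 14 tested probe sets, over all 8 arrays (black circles) and without control replicate 2 (orange squares); filled symbols passed an adjusted p of 0.05. Dnajb1 1416755_at lies below 0 in both, and the Hspa5 probe sets pass without that array only.

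By gene, taking the probe set with the highest mean, 2 of the 8 tested genes passed, beside 45.2% of all tested probe sets. They were Dnajb1 (-1.60) and Hspa8 (-0.64), both lower with CoCl2. When the probe sets of each gene were averaged instead, 0 of 8 passed in limma, and 1, Hspa5, had an unadjusted p under 0.05 (0.57, limma adjusted p = 0.0668). Such an average gives dim and bright probe sets the same weight. The median log2 difference was -0.01 over the 14 tested chaperone probe sets and 0.19 over all tested probe sets, and without control replicate 2 it was 0.31 and 0.19. Groups without overlap were found for 3 of the 14 and for 45.5% of all tested probe sets, and without that array for 7 of the 14 and for 49.3%. Without control replicate 2, 6 chaperone probe sets passed, 5 higher and 1 lower with CoCl2, where 39.6% of all tested probe sets passed (24.7% higher). That array was the highest control in 13 of the 14, so leaving it out had to raise those differences. The shift towards higher, here and in the median, thus follows from how the array was chosen. Leaving out any other single array lowered the number of chaperone probe sets past the threshold to between 1 and 3. It was 2 without CoCl2 replicate 1, CoCl2 replicate 2 or control replicate 3, and 3 without control replicate 4. It was 1 without CoCl2 replicate 3, CoCl2 replicate 4 or control replicate 1. In those settings 8018 to 10277 of all tested probe sets passed, against 10168 with all 8 arrays. The 5 higher without control replicate 2 were the 2 for Hspa5, 1 for Hsp90aa1, 1 for Hsph1 and 1 for Dnajb1. In the authors' deposited table, 15 of the 19 were listed and 8 had a q-value under 5%, 5 with a positive and 3 with a negative difference, beside 69.1% of its 24845 probe sets.

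With all 8 arrays, the controls spread more than the CoCl2 arrays for most of these probe sets. The median SD of the 14 tested chaperone probe sets was 0.27 in the CoCl2 group and 0.64 in the control group, whereas over all tested probe sets it was 0.25 and 0.29. The control SD was the larger one in 11 of the 14, and in 55.6% of all tested probe sets. It was more than 2 times the CoCl2 SD in 10 of the 14, and in 29% of all tested probe sets. Without control replicate 2 the median SD was 0.27 with CoCl2 and 0.31 in the other 3 controls, the control SD was larger in 10 of the 14 and more than 2 times as large in 5, where the shares over all tested probe sets were 54.2% and 29.5%. These values are descriptions, since the pattern was noticed in the same arrays.

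Control replicate 2 lay above the highest other control by 2.71 for Hspa1b 1452318_a_at, by 2.19 for Hsph1 1423566_a_at, by 1.39 for Hsp90aa1 1437497_a_at and by 1.38 for Hsph1 1425993_a_at. Ranked by this gap among 22519 tested probe sets, they were at places 1, 2, 8 and 9. The gap was 1.27 for Hsp90aa1 1426645_at, 0.74 for Hspe1, 0.66 for Hspa5 1416064_a_at and 0.65 for Hspa8 1420622_a_at. It was 0.58 for Hsp90aa1 1438902_a_at, 0.56 for Dnajb1 1416755_at, 0.48 for Hspa5 1427464_s_at, 0.43 for Hspd1 and 0.38 for Dnajb1 1416756_at. In all, 10 of the 14 were among the highest 500 gaps, which are 2.22% of tested probe sets. The 5 widest gaps came from Hspa1b, from both Hsph1 probe sets and from 2 of the 3 for Hsp90aa1, while Hspa8 1431182_at was at -0.12.

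**Figure D3:**
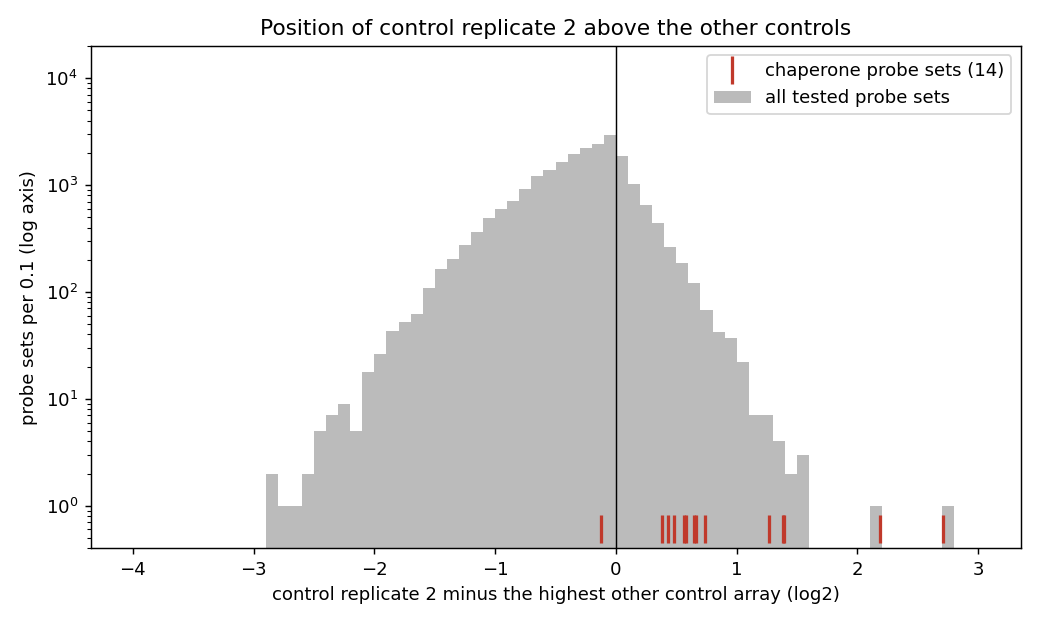
Histogram (log count axis) of the log2 gap between control replicate 2 and the highest other control array over all tested probe sets, with red ticks for the 14 chaperone probe sets. The ticks lie between -0.12 and 2.71, with 13 of 14 above 0.

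Against all 7 other arrays, control replicate 2 was highest in 10 of the 14 and in 5.5% of all tested probe sets. It stood at least 1 above all of them in 20 tested probe sets (0.0888%), and 3 of these 20 were chaperones, namely Hspa1b 1452318_a_at, Hsph1 1425993_a_at and Hsp90aa1 1426645_at. Across all tested probe sets this array did not lead its group more often than the others, at 21.2% against 21.6%, 23.1% and 34.1% for control replicates 1, 3 and 4. Control replicate 3 was the lowest control in 8 of the 14 and control replicate 4 in 5. In the CoCl2 group the highest array was replicate 3 in 6 and replicate 2 in 4 of the 14.

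For control replicate 2, the 3' minus 5' differences, which measure RNA quality, lay within those of the other controls. Its 3' minus 5' difference was 1.84 for beta-actin, where the others had 1.92, 1.75 and 1.99, and 1.59 for Gapdh, where they had 1.62, 1.38 and 1.61. Its bioB and bioC mean was 12.97, and the others were at 13.29, 13.40 and 12.97. Gapdh itself, a glycolytic enzyme, was at 10.47 there and at 10.34 to 10.59 on the other controls. Beta-actin itself was at 11.78 there, the highest of the controls, and at 11.59 to 11.66 on the others.

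**Figure D4:**
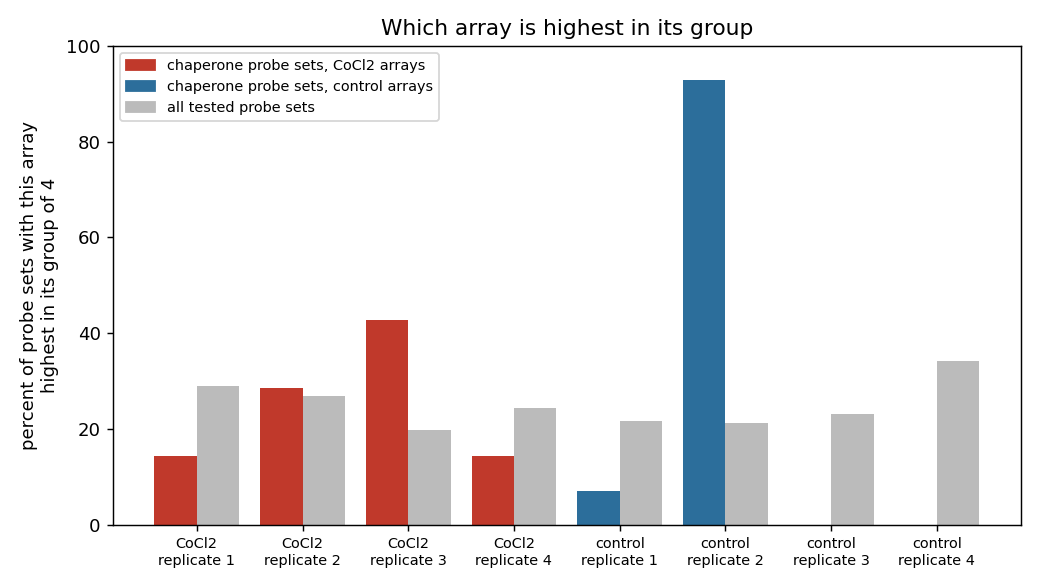
Percent of the 14 chaperone probe sets (coloured bars, CoCl2 arrays left and control arrays right) and of all tested probe sets (grey bars) in which each array is the highest of its group of 4. Control replicate 2 leads in 13 of 14 chaperone probe sets and in 21.2% of all tested probe sets.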

How the data were processed

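Whole-blood RNA was hybridised to 1 Affymetrix array per sample. Per the submitters' processing notes, GCRMA and Partek were used. In the deposited value table each cell is a score, namely a log2 value that has lost its decimal point, and the point was put back from the digits. Some cells had become spreadsheet day numbers and were read as month and 2-digit year or as day and month of a single year. Of 360808 cells, 353402 were read with 1 digit before the point, 6998 with 2, 341 and 54 as the day-number kinds and 13 as they stood. Another reading was possible in 1210 cells (0.335%), which took the value closest to the unambiguous arrays of that probe set. The day-number rule and the lowest value allowed (1.63) were set after seeing the data: among 173 month cells, 160 lay within 0.3 of another array when read with a 2-digit year and 141 with a 4-digit year. Those month cells had been picked because the 2-digit reading lay closest, which favours it in this count. Tested on simulated losses of the point, the rule returned 99.98% of values to within 0.005, and 93.2% of the ambiguous ones. The simulation made day numbers by the same rule, so it cannot tell whether that rule is right for the deposited values. The authors' deposited table, made with SAM per the file headers, holds a score, a log2 difference, a linear fold change ratio and a q-value in percent.

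AFFX controls were left out. The upper 50% by mean (22519 probe sets) went into limma 3.58.1 in R 4.3.3, CoCl2 minus control, two-sided, with Benjamini-Hochberg adjustment over these probe sets and a threshold of 0.05. Arrays were also simulated with CoCl2 and control groups of this size, where 200 of 22519 probe sets were given a change. There limma called 2% of those given 0.5, 30% of those given 1, 80% of those given 2 and 86% of those given -2. It also called 7 unchanged ones. On the measured arrays limma called 10168. The adjustment is stricter where fewer probe sets change, so the simulated shares do not give the power of the CoCl2 comparison. The members, lists and tests were chosen with earlier results of these data known, and the description of control replicate 2 was added after seeing them. All 19 members are named. Lists of other chaperones, blood cell markers and a search for probe sets that resemble Hspa1b had been planned and were not analysed here, because no table used here names probe sets. Promoters are from RefSeq, GRCm38.p6. Same-numbered arrays did not deviate together (correlations of -0.04 to 0.02). The numbers thus gave no sign of a pairing, though such correlations cannot exclude one. The alternatives varied the filter, the normalization (quantile, median, bioB and bioC), the ambiguous cells (set to missing), the prior, the weights of arrays and the probe set rule per gene, added the replicate numbers as a block, left out single arrays, or used the authors' table.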

Additional observations from a re-analysis of the deposited data

Results flagged for a closer look

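Of 38 groups of 4 values examined for the chaperone probe sets, 2 had 1 array distant from its group, and about 1 in 20 groups would by chance. Control replicate 2 stood at 3.26 for Hspa1b 1427126_at, where the other controls lay between 2.70 and 2.77. CoCl2 replicate 4 stood at 8.36 for Hsph1 1425993_a_at, where the other CoCl2 arrays lay between 8.93 and 9.04. The wide gaps of control replicate 2 for the tested probe sets do not appear here, because the other controls of those probe sets were themselves spread out.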

How the results depend on the processing

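Centring on bioB and bioC adds the same amount to every difference. It gave 21020 probe sets past the threshold, 11 of them chaperones (all higher with CoCl2), and 5 genes, and it turned Hspa1b 1452318_a_at to 0.25, Hsph1 1425993_a_at to 0.60, Dnajb1 1416755_at to 0.22, Hspa8 1420622_a_at to 1.18, Hsp90aa1 1426645_at to 1.81 and 1438902_a_at to 1.28, Hspd1 to 1.82 and Hspe1 to 1.16. Without a filter, where more probe sets share the adjustment, 1 chaperone probe set and 1 gene passed, beside 7984 of 45037 probe sets. The stricter filter, which tests fewer probe sets, left 6149 past the threshold. The authors' table gave 17159 in all, 8 chaperone probe sets and 4 genes, with 0.03 for Hsp90aa1 1426645_at and 0.14 for Hspd1; the cause was not tested. Genes past the threshold numbered 4 after quantile normalization (with Hsp90aa1 1437497_a_at at -0.05), 1 with ambiguous cells missing and 0 with averaged probe sets in limma (1 at an unadjusted p under 0.05); the cause was not tested for quantile normalization. With the replicate block 4 genes and 4 chaperone probe sets passed, all lower, beside 9218 probe sets in all. Since the arrays share only a number, this does not show pairing. Leaving out 1 array at a time gave 8018 to 10277 probe sets, 1 to 6 chaperone probe sets (6 without control replicate 2) and 1 to 3 genes. In those settings Hsp90aa1 1426645_at, at -0.01 over all arrays, ranged from -0.43 without control replicate 3 to 0.42 without control replicate 2 (0.02 without CoCl2 replicate 2), and Hspd1 lay between -0.14 and 0.19. Control replicate 2 was the highest control in 12 to 14 chaperone probe sets under 6 alternatives added after seeing the data (14 of 19 without a filter).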
